A study of Solanum pimpinellifolium with 72 samples.

Results

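The genes described here are the 161 whose transcript level in wild-type (WT) tomato buds was raised by 4 days post floral initiation (4dpi) and then stayed level until 6dpi. They were chosen from the WT libraries alone, on the mean log2(RPKM + 1) of each stage, where RPKM is reads per kilobase of gene model per M mapped reads. A member had a difference of at least 1.5 on that scale for 4dpi minus the early stage, a difference between -0.5 and 0.5 for 6dpi minus 4dpi, and a mean of at least 2 RPKM at 4dpi. The deposited table held 34727 genes, of which 20577 reached at least 1 RPKM in at least 4 libraries and were tested, all 161 members included. Of 303 genes that met the first and last condition in WT, 118 were higher again at 6dpi, 24 were lower at 6dpi, and the 161 members lay between.

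A tomato flower starts as a small dome of dividing cells on the inflorescence meristem, and the floral organs arise on its flanks in order from the sepals inwards to the carpels. MADS-domain proteins of the SEPALLATA (SEP) group act with the organ identity proteins in this process, while YABBY, JAGGED and BLADE-ON-PETIOLE proteins pattern the young organs and their boundaries. The size of the dome is held by a feedback between the homeodomain protein WUSCHEL, which keeps stem cells, and the secreted peptide CLAVATA3, which restrains WUSCHEL.

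The study measured whole mRNA in young inflorescences of Solanum pimpinellifolium LA1589, a wild relative of cultivated tomato, and asked how fruit locule number loci act on the flower. The lines lc and fas are near isogenic to LA1589 and carry the mutant allele of the locule number locus next to SlWUS on chromosome 2 or of the fasciated locus at SlCLV3 on chromosome 11, and lc/fas carries both. RNAi-SlCLV3 expresses a hairpin against SlCLV3 from the CaMV 35S promoter, which is active in most tissues. HC2 is the fas line with a genomic SlCLV3 copy under its own promoter, and WT is the wild type in the LA1589 background. The labels do not say whether WT is the accession or the wild type taken from the backcross population. Each genotype was sampled at the early stage, which pools the floral and inflorescence meristems with 2dpi buds, and as buds at 4dpi and 6dpi. There were 4 libraries per group, 72 in all. For WT and RNAi-SlCLV3 the paper describes replicates collected in different weeks from greenhouse plants. It gives no such scheme for the lc, fas, lc/fas and HC2 libraries of this kind. A p-value measures the spread between libraries of a group, which for WT and RNAi-SlCLV3 were such collections. Which of the independent transformants gave each RNAi-SlCLV3 and HC2 library is not given in the sources used here.

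The recovered read totals ran from 2.93 to 58.6 M per library with a median of 19.1 M, and 7 libraries lay under 10 M. Among these were WT libraries that helped choose the members. They were early replicate 3 (2.931 M, the lowest of all), early replicate 4 (7.157 M) and 4dpi replicate 3 (8.535 M). SlCLV3 itself ran from 2.24 to 4.60 RPKM in the early RNAi-SlCLV3 libraries, against 4.75 to 7.91 RPKM in early lc/fas and 4.66 to 10.5 RPKM in early WT. In early HC2 it ran from 5.08 to 5.68 RPKM, against 4.10 to 6.44 RPKM in early fas. At 4dpi SlCLV3 ran from 1.29 to 2.35 RPKM in RNAi-SlCLV3, against 0.822 to 1.85 RPKM in lc/fas and 0.611 to 2.24 RPKM in WT, and from 0.409 to 1.69 RPKM in HC2, against 0.507 to 1.14 RPKM in fas. So the SlCLV3 signal at the early stage was lower in RNAi-SlCLV3 than in lc/fas and WT without overlap. At 4dpi it overlapped with both, and HC2 overlapped with fas at both stages. The paper proposes that residual SlCLV3 signal in RNAi-SlCLV3 came from incomplete silencing or from transcripts of the hairpin. The values there therefore do not give the level of the endogenous gene alone, and in HC2 they do not separate the added copy. Markers of other tissues moved with stage. The summed RPKM of 4 meristem genes ran from 368.4 to 493.5 at the early stage, from 145.8 to 247.5 at 4dpi and from 124.1 to 213.6 at 6dpi. The sum of 4 stamen and petal genes, homologs of APETALA3 and PISTILLATA, ran from 36.0 to 123.4 at the early stage, from 302.7 to 832.7 at 4dpi and from 815.4 to 1374 at 6dpi. The sum of 8 light-harvesting genes of green tissue ran from 875.8 to 1639, from 1763 to 3362 and from 2957 to 4646 RPKM over the same stages. That of 2 carpel genes ran from 2.20 to 15.8, from 2.04 to 21.4 and from 85.4 to 181.0 RPKM. TAG1, the AGAMOUS homolog of stamens and carpels, ran from 0.491 to 8.77, from 35.1 to 87.8 and from 87.3 to 151.4 RPKM. No gene of these lists was at 0 in all libraries of a stage, 1 light-harvesting gene is itself a member, and the part of tissue make-up in the results below was not tested. In bulk samples such as these, fewer cells of a type and less RNA per cell cannot be told apart.

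In WT, whose values chose the members and which are therefore given with no test, most of the 161 genes were already expressed at the early stage. The median member had a mean of 3.42 RPKM at the early stage, 18.9 RPKM at 4dpi and 22.4 RPKM at 6dpi, and the median ratio of the 4dpi mean to the early mean was 5.1. Only 41 members had an early mean under 1 RPKM and 2 had one under 0.1 RPKM. None was at 0 in all 4 early WT libraries, and 21 were at 0 in at least 1 of them. They are therefore called raised by 4dpi here, not switched on. The WT step ran from 1.50 to 3.52 with a median of 1.89 on the log2(RPKM + 1) scale, and 67 members had a step of at least 2. The later difference ran from -0.45 to 0.49 with a median of 0.13. Because 1 is added before taking logs, a difference on this scale understates the change of genes with low values. The median member had 28 reads in an early WT library and 327.5 in a 4dpi WT library, and 47 members had a median under 10 reads in early WT.

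The edges of the rule cut through a continuous range. Just inside the step limit of 1.5 lay Solyc11g068890 at 1.5035 and Solyc05g009380, the homolog of Arabidopsis JAGGED, at 1.5051. Just outside lay Solyc06g073760 at 1.4947 and Solyc01g091010, a YABBY gene homologous to FILAMENTOUS FLOWER, at 1.4944. At the upper limit of the later difference, Solyc02g070940 (0.48968) and Solyc07g007250 (0.48696) lay inside, and Solyc06g072290 (0.50403) and Solyc03g080060 (0.51098) outside. At the lower limit, Solyc00g005070 (-0.44892) and Solyc07g038160 (-0.43483) lay inside, and Solyc07g063690 (-0.52941) and Solyc06g074760 (-0.53701) outside. The lowest members at 4dpi, Solyc03g078630 and Solyc02g071110, had means of 2.331 and 2.3711 RPKM, and no gene that met the other conditions fell under 2 RPKM.

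The rise by 4dpi was found again in the 5 genotypes that the rule did not use. In lc 159 members were called higher at 4dpi than at the early stage, against 12.9% of all tested genes. In fas 158 members were called (11.9% of all tested), in lc/fas 157 (10.8%), in RNAi-SlCLV3 157 (10.7%) and in HC2 158 (10.7%). None was called lower, where 21.7% of all tested genes were in lc, 15.6% in fas, 9.36% in lc/fas, 8.6% in RNAi-SlCLV3 and 14.5% in HC2. These calls are from limma, at a p-value adjusted by Benjamini-Hochberg over all tested genes below 0.05. The median member step on the log2(RPKM + 1) scale was 1.91 in lc, 1.87 in fas, 1.77 in lc/fas, 1.75 in RNAi-SlCLV3 and 1.70 in HC2, where the median of all tested genes lay between -0.11 and -0.06. All 4 libraries at 4dpi lay above all 4 early libraries for 156 members in lc (9.39% of all tested genes), 155 in fas (11.2%), 156 in lc/fas (12.1%), 155 in RNAi-SlCLV3 (11.0%) and 156 in HC2 (9.62%). The members called in all 5 lines numbered 154, or 95.7%, against 7.26% of all tested genes. Over the alternatives of fit, scaling and left-out libraries, between 775 and 789 of the 789 calls were kept and none was reversed. Under the filter on a mean of at least 5 RPKM, 611 of these calls could be fitted and 610 were kept.

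**Figure D1:**
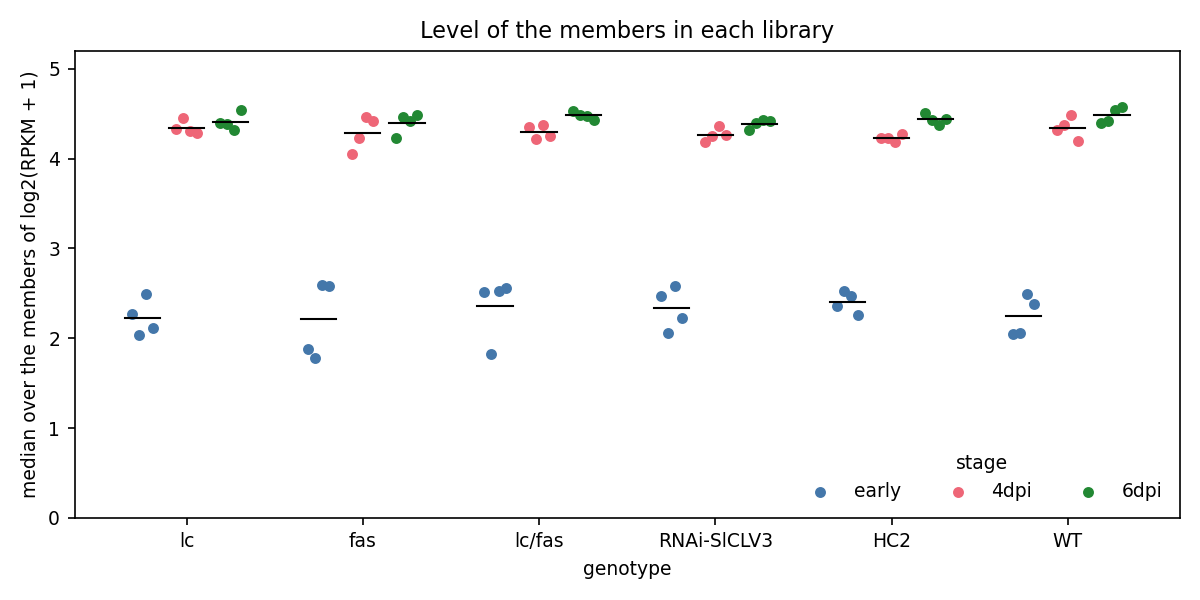
Median over the 161 members of log2(RPKM + 1) in each of the 72 libraries, by genotype and stage; points are libraries and black lines are means of 4. Every 4dpi library (4.05 to 4.48) lay above every early library (1.78 to 2.59), and the 6dpi libraries ran from 4.23 to 4.57.

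The library medians of the members give the same course without any model. They ran from 1.78 to 2.59 on the log2(RPKM + 1) scale over the 24 early libraries, from 4.05 to 4.48 at 4dpi and from 4.23 to 4.57 at 6dpi. The early libraries were the most spread. In lc/fas the early medians were 2.51, 1.82, 2.53 and 2.56 in replicates 1 to 4, and in fas they were 1.89, 1.78, 2.59 and 2.58. Replicate 2 was lowest of the 4 early libraries in lc, fas, lc/fas and RNAi-SlCLV3, and highest in HC2. Even the highest early library lay below the lowest 4dpi library.

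The complete course, with a step of at least 1.5, a later difference within 0.5 and at least 2 RPKM, was met by 121 members in lc, 124 in fas, 108 in lc/fas, 90 in RNAi-SlCLV3 and 107 in HC2. It was met in all 5 lines by 62 members and in none by 14, counts that were not made over all genes. Of all 34727 genes, the members included, 179 met it in lc, 157 in fas, 142 in lc/fas, 156 in RNAi-SlCLV3 and 147 in HC2. Among the members the step was the condition that was missed more often. It was at least 1.5 for 134 members in lc, 132 in fas, 116 in lc/fas, 103 in RNAi-SlCLV3 and 116 in HC2, whereas the later difference lay within 0.5 for between 142 and 151 members. The step was smaller than in WT for 84 members in lc, 104 in fas, 120 in lc/fas, 112 in RNAi-SlCLV3 and 128 in HC2. The WT steps chose the members, which by itself favours smaller steps in the other lines, so this is a description with no test.

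A few members were not called in some line. Solyc00g005070 was called in none, with steps of 0.50 in lc, -0.17 in fas, 0.12 in lc/fas, 0.12 in RNAi-SlCLV3 and -0.28 in HC2 and a standard error (SE) of 0.57 in limma. Its 4dpi values were 4.03, 0, 1.59 and 7.36 RPKM in lc, against 1.34, 4.29, 0 and 1.22 RPKM at the early stage, so the stages overlapped. In WT it had 6.00, 9.50, 7.42 and 3.29 RPKM at 4dpi, against 2.40, 5.11, 0 and 0 RPKM at the early stage, which also overlapped. Solyc05g014280 was called in HC2 only (step 2.28, SE 0.76, adjusted p = 0.0208 by limma). Its libraries within a group were far apart, for example at 152.1, 182.2, 28.5 and 82.0 RPKM at 4dpi in HC2, against 50.4, 32.6, 3.23 and 15.7 RPKM at the early stage, and the stages overlapped. Solyc06g062960 was called in lc (step 1.83) and HC2 (1.05) and not in fas (0.54), lc/fas (0.89) or RNAi-SlCLV3 (0.77), all with an SE of 0.36. Solyc01g005470 had a step of 0.61 in HC2 (adjusted p = 0.0746) and Solyc02g070850 a step of 0.87 (adjusted p = 0.105), and both were called in the other 4 lines. The gene models of Solyc00g005070 (79 bases), Solyc06g062960 (91 bases), Solyc02g070850 (126 bases) and Solyc05g014280 (133 bases) were short, and the part of their length in the result was not tested. The member with the smallest step after Solyc00g005070 was Solyc12g049340 in lc (0.76, SE 0.245, adjusted p = 0.0132) and Solyc05g032780 in lc/fas (0.69, SE 0.26, adjusted p = 0.0471), and both were called. The remaining exceptions, Solyc05g051760 in lc/fas and Solyc12g056480 in RNAi-SlCLV3, are given with their groups below.

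After 4dpi the median member changed little in the other genotypes. In lc 9 members were called different at 6dpi from 4dpi, against 11.8% of all tested genes, and 5 of them were higher (8.39% of all tested) and 4 lower (3.44%). In fas 3 members were called, all higher, where 7.32% of all tested genes were called and 5.59% were higher. In lc/fas 4 were called (5.93% of all tested) and in RNAi-SlCLV3 5 (4.38%), again all higher (4.61% and 3.16%). In HC2 7 members were called (9.78%), 6 higher (7.66%) and 1 lower (2.11%). The median difference of the members on the log2(RPKM + 1) scale was 0.04 in lc, 0.08 in fas, 0.17 in lc/fas, 0.17 in RNAi-SlCLV3 and 0.17 in HC2, and that of all tested genes lay between 0.01 and 0.06. The 118 genes that were higher again in WT had medians of 0.73 to 0.84 over the 5 lines, and the 24 that were lower in WT had medians of -0.80 to -0.41, both given as a description. Samples with the same replicate number deviated together within every line, so the fit was repeated with the replicate number as a block. It then called 19 members in lc (11 higher, 8 lower), 8 in fas (7 higher, 1 lower), 14 in lc/fas, 10 in RNAi-SlCLV3 (all higher in these lines) and 16 in HC2 (13 higher, 3 lower). Of all tested genes the blocked fit called 19.9% in lc, 10.7% in fas, 9.28% in lc/fas, 6.74% in RNAi-SlCLV3 and 15.6% in HC2.

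**Figure D2:**
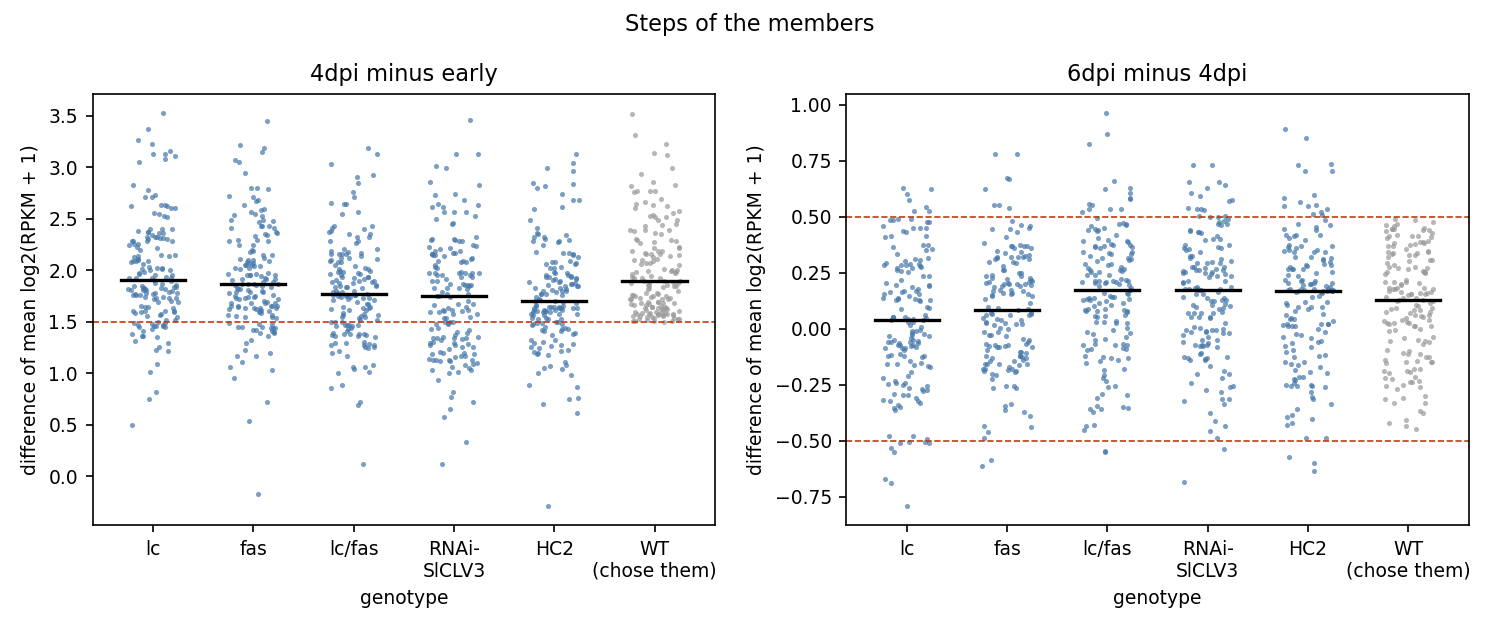
Difference of mean log2(RPKM + 1) for the 161 members, 4dpi minus early (left) and 6dpi minus 4dpi (right), 1 point a member, with the median as a black line and the limits of the rule dashed. The WT points in grey chose the members and lie inside the limits by construction, while the medians of the other 5 genotypes ran from 1.70 to 1.91 and from 0.04 to 0.17.

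In the fit without the block, 141 members were called in no line after 4dpi and 5 were called in at least 2, counts that were not made over all tested genes. Solyc12g044280 was called higher at 6dpi in lc, fas, lc/fas and RNAi-SlCLV3 by 0.55 to 0.58. In lc/fas it had 13.8, 12.5, 13.6 and 11.1 RPKM at the early stage, 28.7, 43.3, 31.2 and 34.5 RPKM at 4dpi and 45.1, 55.3, 48.0 and 54.1 RPKM at 6dpi, and the 6dpi libraries lay above those of 4dpi. Its difference in HC2 was 0.40 (adjusted p = 0.134 by limma). Solyc02g070940, a homolog of the light-harvesting chlorophyll a/b binding protein CAB1, was called in lc (0.41), fas (0.45) and RNAi-SlCLV3 (0.47). Solyc05g014000, a homolog of a pectate lyase, an enzyme that cuts wall pectin, was called in RNAi-SlCLV3 (0.66) and HC2 (0.73). In HC2 it had 13.5, 16.4, 15.3 and 16.6 RPKM at 4dpi and 26.1, 26.9, 26.7 and 25.1 RPKM at 6dpi, with no overlap. Solyc07g038160 was called lower at 6dpi in lc (-0.67) and HC2 (-0.63). The call of Solyc12g044280 was lost in each of the 4 lines when replicate 3 or replicate 4 was left out, with adjusted p-values of up to 0.0905 in lc, 0.293 in fas, 0.239 in lc/fas and 0.309 in RNAi-SlCLV3. That of Solyc02g070940 was lost in each of its 3 lines without replicate 1, 3 or 4, with adjusted p-values of up to 0.311. That of Solyc05g014000 was lost in HC2 without replicate 2 (adjusted p = 0.0602) and in RNAi-SlCLV3 without replicate 1, 2 or 4 (up to 0.246), and that of Solyc07g038160 in lc without replicate 1 or 2 (up to 0.0872) and in HC2 without replicate 1, 3 or 4 (up to 0.102).

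Of the 161 members, 49 are paired with an Arabidopsis gene in the study's supplementary tables and 112 are not. The paper describes several of those tables as lists of genes that differed between genotypes. The 49 may therefore be richer in such genes than the other members, which was not tested. The roles below are those known for the Arabidopsis genes. The 49 fall into 8 floral and organ regulators, 4 hormone related genes, 5 genes of cell wall and lipids, 10 of specialised metabolism, 3 of plastids and chlorophyll, 7 hydrolases, inhibitors and catalase, and 12 others. RPKM values are per length of gene model and can be compared between genes.

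The floral and organ regulators kept the step in every genotype. All 8 had a step of at least 1.5 in each of the 5 lines, and their median step on the log2(RPKM + 1) scale was 2.19 in lc, 2.07 in fas, 2.14 in lc/fas, 2.43 in RNAi-SlCLV3 and 1.97 in HC2, against 2.09 in WT. Solyc05g015750, the homolog of SEP3, a MADS-domain partner of the organ identity proteins, had early values of 25.6, 12.4, 29.1 and 14.3 RPKM in RNAi-SlCLV3. Its values there were 138.5, 191.7, 206.3 and 173.5 RPKM at 4dpi and 197.6, 192.9, 214.0 and 206.3 RPKM at 6dpi. In lc/fas it had 34.9, 18.2, 46.4 and 52.3 RPKM at the early stage, 183.1, 200.2, 198.7 and 188.0 RPKM at 4dpi and 186.0, 210.5, 223.3 and 222.8 RPKM at 6dpi. The stages early and 4dpi did not overlap in either line, and those of 4dpi and 6dpi did. The step of Solyc05g015750 was 3.13 in RNAi-SlCLV3, 2.3 in lc, 2.33 in fas, 2.41 in lc/fas and 1.77 in HC2 (SE 0.22 each), with adjusted p-values by limma from 9.55e-18 to 2.02e-09.

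Solyc02g089200, the homolog of SEP2 from the same MADS-domain group, followed the same course. It had 39.6, 23.6, 48.1 and 28.8 RPKM at the early stage, 176.6, 238.1, 244.4 and 214.1 RPKM at 4dpi and 231.7, 256.8, 261.4 and 253.9 RPKM at 6dpi in RNAi-SlCLV3. Its step was 2.65 in that line and between 2.00 and 2.12 in lc, fas, lc/fas and HC2 (SE 0.16 each). Solyc03g044300, the homolog of APETALA2 (AP2), which in Arabidopsis specifies sepals and petals, was a low gene with early values of 0.289 to 1.66 RPKM over all genotypes. In HC2 it had 0.556, 1.06, 1.26 and 0.847 RPKM at the early stage, 5.85, 5.35, 8.61 and 5.36 RPKM at 4dpi and 9.80, 10.2, 8.58 and 9.94 RPKM at 6dpi. Its step ran from 1.90 to 2.10 over the 5 lines (SE 0.17 each). After 4dpi it was called higher in HC2 (0.56, adjusted p = 0.0217 by limma), where 1 library at 4dpi lay just above the lowest at 6dpi, and in the other lines it gave 0.35 to 0.47 with adjusted p-values of 0.0971 to 0.358. The call in HC2 was lost without replicate 1, 2 or 4 (adjusted p of up to 0.236).

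**Figure D3:**
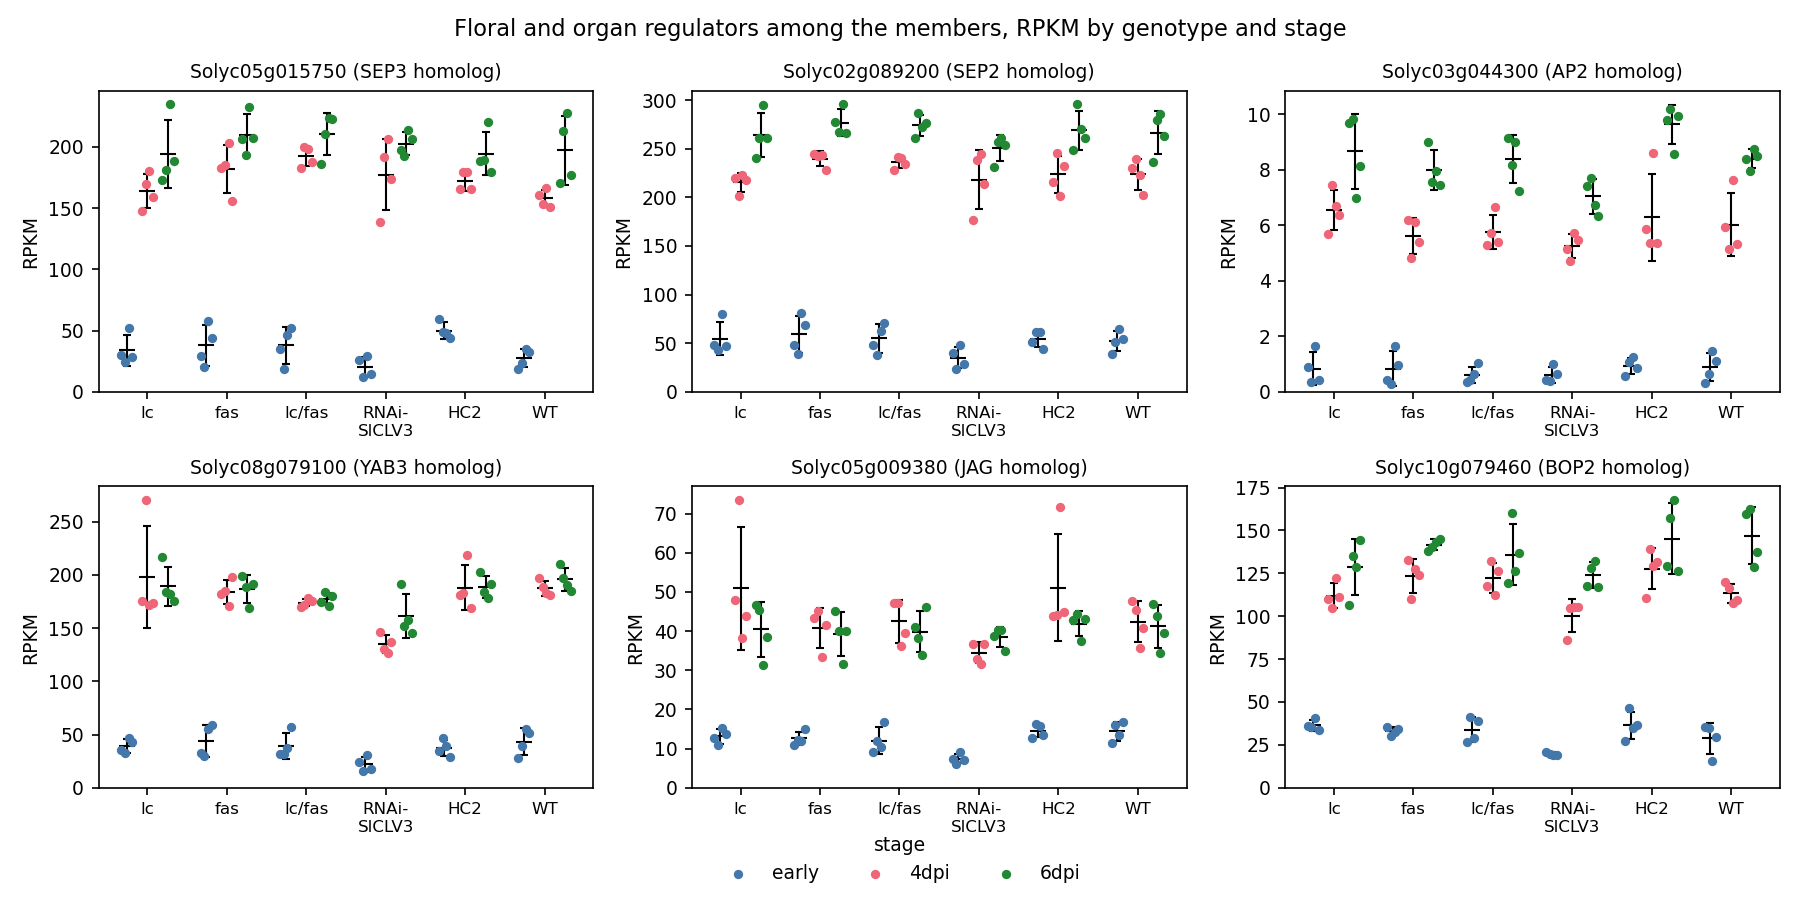
RPKM of 6 floral and organ regulators among the members, by genotype and stage; points are libraries, and black bars give the mean and SD of 4. In each gene and genotype the 4dpi libraries lay above the early libraries, and the early RNAi-SlCLV3 libraries of the BOP2 homolog (18.8 to 21.0 RPKM) lay below those of lc/fas (26.7 to 41.2 RPKM).

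The regulators of organ shape and boundaries were also called higher at 4dpi in every line. Solyc08g079100, the homolog of YABBY3, which marks the outer side of young organs, had 24.4, 15.7, 30.6 and 17.3 RPKM at the early stage, 146.0, 130.6, 126.9 and 137.3 RPKM at 4dpi and 191.2, 151.8, 157.2 and 145.1 RPKM at 6dpi in RNAi-SlCLV3. Its 4dpi values in lc/fas, 170.0, 172.1, 177.9 and 175.1 RPKM, lay above all those of RNAi-SlCLV3, with a difference of -0.36 (RNAi-SlCLV3 minus lc/fas, SE 0.17, adjusted p = 0.585 by limma). Solyc10g079460, the homolog of BLADE-ON-PETIOLE2 (BOP2), which acts at organ boundaries, had 21.0, 19.9, 18.9 and 18.8 RPKM at the early stage in RNAi-SlCLV3, against 26.7, 41.2, 28.9 and 38.7 RPKM in lc/fas. At 4dpi it had 86.3, 104.7, 105.4 and 105.2 RPKM in RNAi-SlCLV3, against 117.8, 132.4, 112.5 and 126.1 RPKM in lc/fas. The groups did not overlap at either stage, and the 4dpi difference of -0.28 (SE 0.14) was not called (adjusted p = 0.616 by limma). Solyc05g009380, the homolog of JAGGED, a zinc finger protein that promotes organ growth, had steps of 1.62 to 2.08 over the 5 lines (SE 0.16 each). Solyc09g008810, the homolog of the homeodomain gene LMI1, a target of LEAFY in Arabidopsis, had steps of 2.22 to 2.72 (SE 0.19 each). Solyc02g069510, the homolog of LSH6, had steps of 2.16 to 2.62 (SE 0.22 each).

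The step of these regulators was larger in RNAi-SlCLV3 than in WT for 7 of 8 genes, which is a description. The difference of the steps of RNAi-SlCLV3 and lc/fas, which the rule did not use, was positive for 6 of 8 genes with a median of 0.43, against 67 of all 161 members with a median of -0.09. It was 0.72 for Solyc05g015750 (SEP3, SE 0.31, unadjusted p = 0.0235), 0.52 for Solyc02g089200 (SEP2, SE 0.23, unadjusted p = 0.0264) and 0.45 for Solyc10g079460 (BOP2, SE 0.20, unadjusted p = 0.0244). None of the 8 was called, since the adjusted p of each of these 3 was 1 by limma. The 8 genes were measured in the same libraries and grouped after their values were seen. The count of signs is therefore a description with no test.

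All 4 hormone related genes and all 5 of cell wall and lipids were called higher at 4dpi in each of the 5 lines. Solyc03g006880, the homolog of GA20OX1, a late enzyme of gibberellin synthesis, had 0.733, 0.849, 0.666 and 0.545 RPKM at the early stage, 4.76, 6.03, 7.07 and 7.30 RPKM at 4dpi and 6.88, 6.50, 6.75 and 6.67 RPKM at 6dpi in RNAi-SlCLV3. The early and 4dpi libraries did not overlap. Its step ran from 1.87 to 2.09 over the 5 lines (SE 0.14 each), and its later difference from -0.13 to 0.09. The other 3 hormone related genes, homologs of a SAUR gene of the auxin response, the purine permease PUP4 and the glycosyltransferase UGT75D1, had steps of 1.38 to 2.59. Solyc12g098610, the homolog of the wall enzyme XTH16, which cuts and rejoins xyloglucan, had steps of 2.08 in lc, 2.80 in fas, 2.71 in lc/fas, 2.86 in RNAi-SlCLV3 and 1.94 in HC2 (SE 0.32 each). Its values in HC2 were 5.44, 6.49, 4.13 and 4.57 RPKM at the early stage, 23.9, 18.1, 18.2 and 31.7 RPKM at 4dpi and 23.7, 15.7, 24.1 and 29.7 RPKM at 6dpi, with no overlap between the first 2 of these stages. Solyc05g051760, a gene of the DUF617 family, was the only annotated member not called in lc/fas, with a step of 0.73 (SE 0.29, adjusted p = 0.0636 by limma). It had 0.982, 1.82, 0.723 and 1.20 RPKM at 4dpi there, against 0.411, 0, 0.649 and 0.217 RPKM at the early stage, which did not overlap.

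The 10 genes of specialised metabolism had a lower median step in RNAi-SlCLV3 than in the other genotypes. Their median step on the log2(RPKM + 1) scale was 2.15 in lc, 1.95 in fas, 1.94 in lc/fas, 1.32 in RNAi-SlCLV3 and 1.79 in HC2, against 2.16 in WT, and 4 of 10 reached 1.5 in RNAi-SlCLV3, against 8 of 10 in lc/fas. The difference of the steps of RNAi-SlCLV3 and lc/fas was negative for 9 of 10 with a median of -0.27, and 1 of them was called. The called gene, Solyc11g072110, is homologous to a 2-oxoglutarate dependent oxygenase and is described with the line comparisons. The difference was also negative for 6 of 7 hydrolases, inhibitors and catalase, 4 of 5 genes of cell wall and lipids and all 3 of plastids. It was positive for 6 of 8 floral and organ regulators, all 4 hormone related genes and 7 of 12 others. Over all 161 members it was positive for 67, with a median of -0.09. The genes of a group were measured in the same libraries, and the groups were formed after their values were seen. These counts of signs are therefore a description with no test. The median step was also lowest in RNAi-SlCLV3 in the cell wall and lipid (1.62) and plastid (1.19) groups. Solyc05g053400, the homolog of UGT72E1, a glycosyltransferase of phenylpropanoids, had 21.1, 16.2, 32.1 and 23.2 RPKM at the early stage in RNAi-SlCLV3, against 10.2, 8.33, 14.4 and 16.4 RPKM in lc/fas. At 4dpi it had 48.4, 62.1, 61.7 and 63.9 RPKM in RNAi-SlCLV3, against 40.7, 48.7, 58.6 and 55.4 RPKM in lc/fas, where the groups overlapped. Its step difference was -0.64 (SE 0.30, unadjusted p = 0.0364) and was not called (adjusted p = 1 by limma). Solyc08g080040, the homolog of LDOX, an enzyme of anthocyanin synthesis, was the exception in sign at 0.56 (SE 0.54). In RNAi-SlCLV3 it had 56.0, 13.6, 115.0 and 39.8 RPKM at the early stage, 284.2, 342.2, 361.5 and 449.2 RPKM at 4dpi and 340.0, 310.4, 363.9 and 304.8 RPKM at 6dpi, and its early libraries were far apart. Solyc11g010850, the homolog of DXS, the first enzyme of the plastid route to isoprenoids, had steps of 1.12 in RNAi-SlCLV3 and 1.38 to 1.65 in the other lines (SE 0.18 each).

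Among the plastid genes, Solyc12g056480, the homolog of NYE1, which removes magnesium from chlorophyll as it is broken down, was the one annotated member not called in RNAi-SlCLV3. It had 13.8, 8.84, 20.4 and 12.4 RPKM at the early stage, 26.1, 11.1, 19.6 and 14.8 RPKM at 4dpi and 19.0, 11.0, 17.0 and 9.07 RPKM at 6dpi in that line. In lc/fas it had 5.52, 4.62, 5.84 and 5.09 RPKM, 14.5, 13.5, 15.1 and 12.7 RPKM, and 23.4, 21.4, 21.4 and 17.1 RPKM at the same stages. The early RNAi-SlCLV3 libraries lay above the early libraries of lc/fas, and overlapped with their own 4dpi libraries. Its step was 0.34 in RNAi-SlCLV3 (SE 0.20, adjusted p = 0.269 by limma), against 1.26 in lc/fas, 1.65 in fas, 1.96 in lc and 1.53 in HC2, and the step difference of RNAi-SlCLV3 and lc/fas was -0.92 (SE 0.28, unadjusted p = 0.00204, adjusted p = 0.701). Solyc12g005300, the homolog of chlorophyllase CLH2, had steps of 1.85 in RNAi-SlCLV3 and 1.98 to 2.74 in the other lines (SE 0.23 each). Solyc02g070940, the CAB1 homolog, was among the highest members, with 924.3 to 1248 RPKM at 4dpi in RNAi-SlCLV3, against 384.1 to 591.8 RPKM at the early stage.

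The highest member of all was Solyc03g098780, homologous to a Kunitz protease inhibitor, with a WT mean of 7399.6 RPKM at 4dpi. In RNAi-SlCLV3 it had 3746, 1880, 4690 and 2215 RPKM at the early stage, 8606, 7662, 9204 and 7777 RPKM at 4dpi and 6954, 5632, 6086 and 4462 RPKM at 6dpi. Its step was 2.31 in lc, 2.37 in fas, 1.88 in lc/fas, 1.50 in RNAi-SlCLV3 and 1.86 in HC2 (SE 0.24 each). Solyc07g006560, the homolog of the ribonuclease RNS3, had steps of 1.86 to 2.43 over the 5 lines (SE 0.25 each), and Solyc07g008570, the homolog of the purple acid phosphatase PAP27, steps of 0.73 in RNAi-SlCLV3 and 1.06 to 1.50 in the other lines (SE 0.23 each). Solyc09g082760, the homolog of the aspartic protease APA1, had one of the largest WT steps at 3.14. Its early values were 72.6, 42.8, 47.4 and 61.9 RPKM in RNAi-SlCLV3, against 46.1, 5.23, 32.8 and 37.1 RPKM in lc/fas, where replicate 2 was far below the others. The step of Solyc09g082760 was 1.97 in RNAi-SlCLV3 and 2.57 in lc/fas (SE 0.40 each).

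Among members with no Arabidopsis gene named, Solyc11g021060 had the largest WT step, 3.52. It had 147.6, 105.2, 256.4 and 230.0 RPKM at the early stage, 1269, 1440, 2061 and 1709 RPKM at 4dpi and 1648, 2097, 2449 and 2242 RPKM at 6dpi in lc/fas. The early and 4dpi libraries were far apart, and those of 4dpi and 6dpi overlapped. Its step was 3.53 in lc, 3.45 in fas, 3.19 in lc/fas, 3.13 in RNAi-SlCLV3 and 2.62 in HC2 (SE 0.30 each). Of the others with the largest WT steps, Solyc06g072350 gave 3.32, Solyc09g089590 3.23 and Solyc07g064600 3.12 in WT. Solyc08g075210, homologous to an acyltransferase, gave 2.99 in WT, and its step over the 5 lines ran from 2.61 to 3.27 (SE 0.32 each).

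Next the lines were compared with each other, to ask whether the members differ between the double and single locule number lines, with and without the added SlCLV3 copy, and between the SlCLV3 hairpin line and lc/fas. None of the 161 members was called between lc/fas and fas at 4dpi (0.17% of all tested genes called), at 6dpi (0.136%) or in the early to 4dpi step (0.0%). At an unadjusted p under 0.05, a cut not counted over all tested genes here or below, 2 members differed at 4dpi, 0 at 6dpi and 2 in the step. Their differences, lc/fas minus fas on the log2(RPKM + 1) scale, ran from -0.70 to 0.60 at 4dpi and from -0.45 to 0.53 at 6dpi. None was called between lc/fas and lc at 4dpi (0.0292% of all tested genes), at 6dpi (0.00972%) or in the step (0.0194%), and 13, 3 and 12 members had an unadjusted p under 0.05. Those differences ran from -0.94 to 0.59 at 4dpi and from -0.45 to 0.65 at 6dpi. That no member was called does not show that the lines were alike.

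Between HC2 and fas, 1 member was called at 4dpi, lower in HC2 (0.948% of all tested genes called in either direction, 0.34% lower), 1 at 6dpi, lower in HC2 (0.802%, 0.204% lower), and 0 in the step (0.0437%). At an unadjusted p under 0.05, 13 members differed at 4dpi, 8 at 6dpi and 5 in the step. Solyc01g080790, a homolog of a plant basic secretory protein, had 1.21, 0.868, 0.744 and 1.89 RPKM at 4dpi in HC2, against 2.21, 3.00, 5.50 and 5.45 RPKM in fas, and the groups did not overlap. The difference was -1.17 (HC2 minus fas, SE 0.23, adjusted p = 0.000587 by limma). Its call was lost without replicate 3 and in the fit of these groups alone, with an adjusted p of up to 0.194. At 6dpi it had 4.10, 1.13, 2.86 and 4.25 RPKM in HC2, against 4.15, 3.92, 4.88 and 6.16 RPKM in fas, which overlapped (difference -0.57, adjusted p = 0.569). Solyc01g107370 was the member called at 6dpi, with 42.9, 29.0, 48.6 and 47.9 RPKM in HC2, against 65.9, 59.3, 79.6 and 91.5 RPKM in fas, and the groups did not overlap. The difference of Solyc01g107370 was -0.81 (HC2 minus fas, SE 0.21, adjusted p = 0.0365 by limma), and it was lost when any of the 4 replicates was left out (adjusted p of up to 0.303).

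Between RNAi-SlCLV3 and lc/fas, at 4dpi 6 members were called, against 1.73% of all tested genes in either direction, and 3 of them were higher (1.27% of all tested) and 3 lower (0.467%) in RNAi-SlCLV3. At 6dpi 0 were called (1.45% of all tested), and in the early to 4dpi step 1 was called, lower in RNAi-SlCLV3 (0.0923%, 0.0486% lower). At an unadjusted p under 0.05, 28 members differed at 4dpi, 14 at 6dpi and 16 in the step. These unadjusted counts include those due to chance and were not set against all tested genes. With the replicate number as a block, 9 members were called at 4dpi (3.03% of all tested genes), 3 higher and 6 lower. Among them were all 6 of the fit without it. Some sets of marker genes also lay apart between these lines at 4dpi. The summed RPKM of the 4 meristem genes ran from 232.4 to 247.5 in RNAi-SlCLV3, against 195.5 to 213.2 in lc/fas, and that of the 4 stamen and petal genes from 302.7 to 579.3 in RNAi-SlCLV3, against 582.3 to 715.1 in lc/fas. Neither pair of ranges overlapped, though those of the stamen and petal genes were close, at 579.3 against 582.3. The other sets overlapped. TAG1 ran from 35.1 to 81.9 RPKM in RNAi-SlCLV3, against 60.8 to 72.5 RPKM in lc/fas. The 2 carpel genes ran from 4.05 to 21.4, against 5.44 to 13.1, and the 8 light-harvesting genes from 2116 to 3018, against 2131 to 2827. The part of these markers in the members' differences was not tested. The SlCLV3 signal was not lower in RNAi-SlCLV3 at 4dpi, but it may hold transcripts of the hairpin, so it does not show whether silencing was present.

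**Figure D4:**
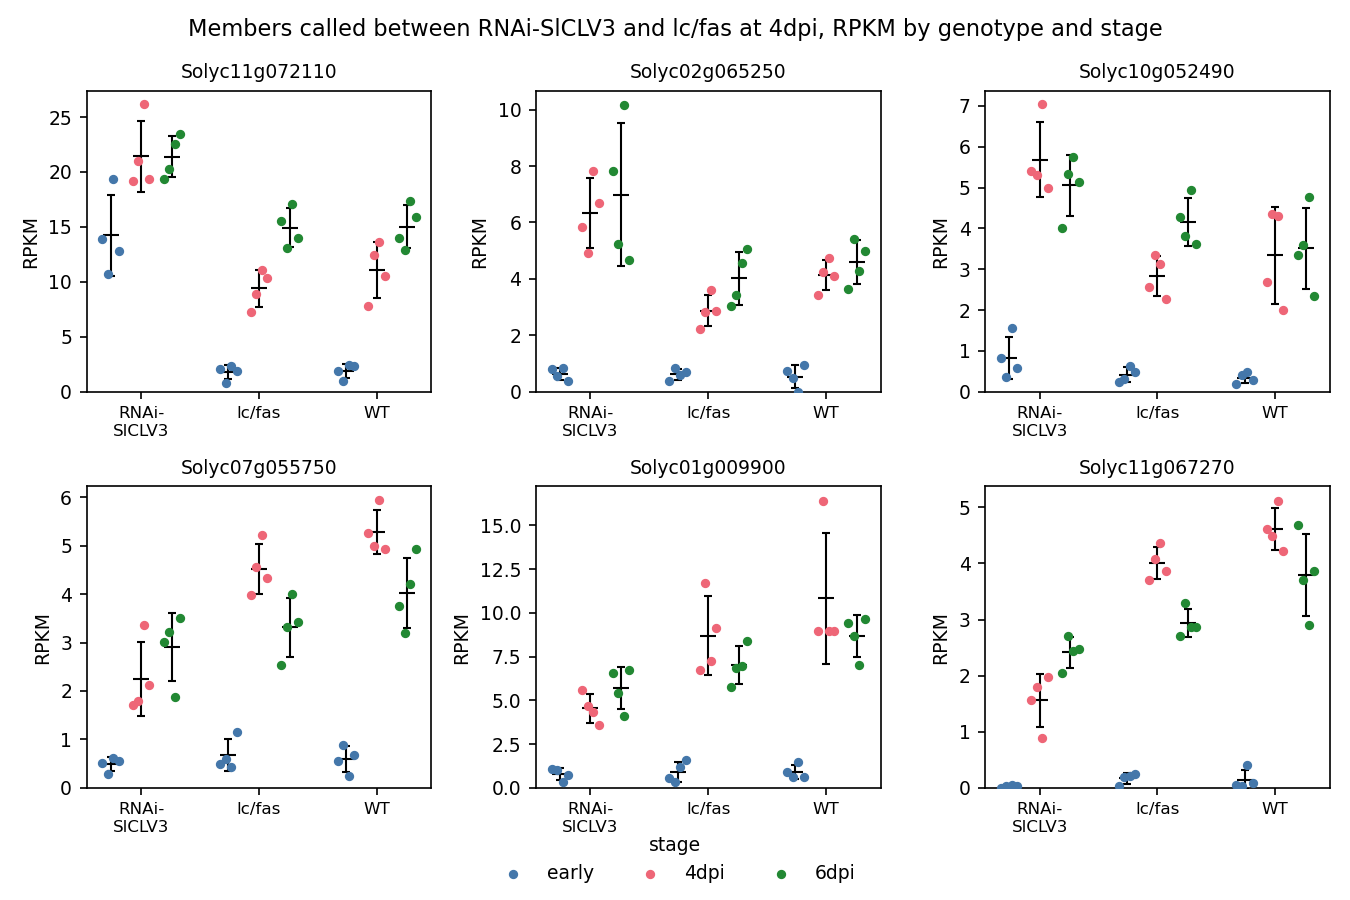
RPKM of the 6 members called between RNAi-SlCLV3 and lc/fas at 4dpi, by genotype and stage, with WT at the right; points are libraries, and black bars give the mean and SD of 4. The top row was higher and the bottom row lower at 4dpi in RNAi-SlCLV3, and Solyc11g072110 was also high in the early RNAi-SlCLV3 libraries (10.7 to 19.4 RPKM, against 0.834 to 2.35 RPKM in lc/fas).

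Solyc11g072110, the homolog of a 2-oxoglutarate dependent oxygenase, had 19.2, 21.0, 26.1 and 19.4 RPKM at 4dpi in RNAi-SlCLV3, against 7.28, 8.92, 11.1 and 10.3 RPKM in lc/fas, with no overlap. The difference was 1.11 (RNAi-SlCLV3 minus lc/fas, SE 0.21, adjusted p = 0.000404 by limma), and it was kept in all 13 alternatives in which it could be fitted (adjusted p of up to 0.0159). It was already high in RNAi-SlCLV3 at the early stage, with 13.9, 10.7, 19.4 and 12.8 RPKM, against 2.08, 0.834, 2.35 and 1.93 RPKM in lc/fas. Its step was 0.58 in RNAi-SlCLV3 (adjusted p = 0.0477) and 1.92 in lc/fas, and the step difference was -1.34 (SE 0.30, adjusted p = 0.0475). That step difference was called in 5 of 14 alternatives and lost in 9, all 4 single replicates left out among them. In lc, fas, HC2 and WT the early values of Solyc11g072110 lay between 0.703 and 4.48 RPKM, below all 4 early RNAi-SlCLV3 libraries.

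Solyc11g067270, a homolog of a plant acyltransferase, was lower at 4dpi in RNAi-SlCLV3, with 1.57, 1.80, 0.896 and 1.98 RPKM, against 3.71, 4.09, 4.37 and 3.87 RPKM in lc/fas. The groups did not overlap, and the difference was -0.99 (SE 0.14, adjusted p = 8.87e-07 by limma), kept in all 12 alternatives in which it could be fitted. At 6dpi it had 2.04, 2.71, 2.44 and 2.47 RPKM in RNAi-SlCLV3, against 2.70, 3.29, 2.88 and 2.87 RPKM in lc/fas, where the groups overlapped by 1 library (difference -0.21, adjusted p = 0.852). After 4dpi this gene was called lower in lc (-0.79, adjusted p = 4.19e-05), which had 4.35, 6.48, 5.53 and 5.71 RPKM at 4dpi and 3.82, 3.00, 1.72 and 2.73 RPKM at 6dpi, with no overlap.

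The other 4 called members have no Arabidopsis gene named. Solyc02g065250 had 5.85, 4.92, 7.84 and 6.69 RPKM at 4dpi in RNAi-SlCLV3, against 2.22, 2.82, 3.60 and 2.87 RPKM in lc/fas (difference 0.91, SE 0.21, adjusted p = 0.00465 by limma). Solyc10g052490 had 5.41, 5.29, 7.03 and 5.0 RPKM in RNAi-SlCLV3, against 2.56, 3.34, 3.12 and 2.27 RPKM in lc/fas (difference 0.81, SE 0.19, adjusted p = 0.00629). Neither pair of groups overlapped, and both calls were lost without replicate 1 or replicate 4. Solyc07g055750 had 1.71, 1.79, 3.36 and 2.12 RPKM in RNAi-SlCLV3, against 3.98, 4.55, 5.21 and 4.33 RPKM in lc/fas (difference -0.79, SE 0.17, adjusted p = 0.0017). Solyc01g009900 had 5.58, 4.70, 4.35 and 3.58 RPKM in RNAi-SlCLV3, against 6.71, 11.7, 7.24 and 9.14 RPKM in lc/fas (difference -0.79, SE 0.22, adjusted p = 0.0395). These groups did not overlap either. The call of Solyc07g055750 was lost without replicate 1 or 2 (adjusted p of up to 0.0989), and that of Solyc01g009900 without replicate 2, 3 or 4 (up to 0.43).

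Set beside WT, which chose the members and so allows no test, the 161 genes were slightly lower at 4dpi in 4 of the 5 lines. The median of line minus WT on the log2(RPKM + 1) scale was 0.07 in lc, -0.05 in fas, -0.09 in lc/fas, -0.18 in RNAi-SlCLV3 and -0.07 in HC2, where the median of all tested genes lay between 0.00 and 0.05. At 4dpi 27.3% of members were higher in RNAi-SlCLV3 than in WT, against 60.8% of all tested genes. The rule favours genes with high WT values at 4dpi, so members tend to lie lower in the other lines by selection alone. All tested genes were not chosen in this way, so the 2 shares are not alike. The 4 meristem genes summed to 232.4 to 247.5 RPKM in RNAi-SlCLV3 at that stage, against 152.8 to 172.3 RPKM in WT, and their part was not tested. At the early stage the member differences of RNAi-SlCLV3 minus WT ran from -1.13 for Solyc11g040040 to 2.40 for Solyc11g072110.

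The pathway lists held only a few of the members. Of 19 tested genes on a list of floral organ identity, 3 were members and 7 had a WT step of at least 1.5, with a median WT step of 1.28. The list of carpel, stamen and petal development held 2 members of 16 tested genes, that of organ polarity 1 of 10, that of phenylpropanoids and flavonoids 1 of 22 and that of photosystem antenna proteins 1 of 9. No member was among 10 stem cell and meristem genes, whose median WT step was -0.98, among 13 genes of cuticle and wax, 14 of sterol synthesis or 4 kinesin genes. Since 161 of all 20577 tested genes were members, lists of this length can hold none by chance. The WT steps of the lists are values that the rule used and carry no test. The median gene model of the members was 924 bases long, against 1126.5 bases for the tested genes. By the chromosome number in the identifier, 10.6% of members lay on chromosome 12, against 6.31% of tested genes, and 14.9% on chromosome 2, against 10.9%. In 13 places members lay within 5 genes of each other in the table, 28 members in all, and the longest such run was of 4 genes around Solyc11g010810 on chromosome 11.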

How the data were processed

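The authors made strand-specific mRNA libraries, aligned the reads to the tomato genome and ITAG2.3 genes with TopHat2 and Bowtie2 (versions not given in the sources used here), counted sense-strand reads and deposited RPKM values per gene. Read totals were recovered from the steps between low RPKM values, and 99.98% of 1085744 values under 500 reads came out whole at a tolerance of 0.01 reads; intervals from them would cover counting error only. Values were analysed as log2(RPKM + 1) with limma 3.58.1 in R 4.3.3 (trend, 18 group means, 72 libraries, 20577 genes that reached 1 RPKM in 4 or more libraries, two-sided, Benjamini-Hochberg over all tested genes, called below 0.05); the pipeline was tested on simulated data. Described by name were members on pathway lists, the 6 with the largest WT step and the 6 highest at 4dpi, called members per line pair, the smallest steps per line and genes next to each limit; the role groups, NYE1, UGT72E1, DXS, GA20OX1, XTH16 and the calls after 4dpi were added after their values were seen. Members and lists were chosen with earlier results of these data known. Replicate numbers pair the samples: every correlation of same-numbered deviations was above 0.1 in each line's stage comparison (0.101 to 0.674), but the lowest was not for HC2 against fas at 4dpi (0.051) or RNAi-SlCLV3 against lc/fas at 6dpi (0.026). Alternatives were another pseudocount, filters, scalings, fits, blocks and left-out libraries. No gene coordinates or sequences were used here.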

Additional observations from a re-analysis of the deposited data

Results flagged for a closer look

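In lc/fas the median of the members over the early libraries was 1.82 on the log2(RPKM + 1) scale in replicate 2, against 2.51 to 2.56 in replicates 1, 3 and 4. The gap to the nearest library took up most of the range of the group, past Dixon's limit for 4 samples. Such a gap arises by chance in about 1 in 20 groups, and 18 groups were checked. The same replicate number was lowest at the early stage in lc, fas and RNAi-SlCLV3 as well, and its part in the results was tested only by leaving it out.

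For Solyc11g072110 the early to 4dpi step differed between RNAi-SlCLV3 and lc/fas by -1.34 on the log2(RPKM + 1) scale (adjusted p = 0.0475 by limma), with a step of 0.58 in RNAi-SlCLV3 and 1.92 in lc/fas. All 4 early RNAi-SlCLV3 libraries lay above all 4 early lc/fas libraries.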

How the results depend on the processing

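Of 309 values of 23 results under alternatives, 233 stayed within 1.5 times the main count and 76 moved. These values are counts of members and carry no direction. The counts of members with a step called in each line were among the values that stayed. For the single members called after 4dpi or between lines, the direction was not reversed under any alternative. The number of members was 253 with a pseudocount of 0.1, 402 with a step limit of 1 and 67 with one of 2, and 142 to 189 when 1 WT replicate was left out. Another scaling shifted the median of all genes by at most 0.09.

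After 4dpi, members called in lc numbered 5 with a pseudocount of 0.1, with no filter and with a mean of at least 5 RPKM, and 2 when the fit held only the 2 stages compared. In fas there were 6 with only these groups, 1 with median-of-ratios and 5 with quantile scaling. In lc/fas there were 1 with the pseudocount and with the mean filter, 24 with only these groups, and 2 with either scaling. In RNAi-SlCLV3 there were 3 with the pseudocount and with the mean filter and 9 with only these groups. In HC2 there were 2 with the pseudocount and 4 with the mean filter. Without the 7 libraries under 10 M reads, an alternative chosen after seeing the data, fas gave 5, lc/fas 7, RNAi-SlCLV3 2 and HC2 3. Leaving out 1 replicate gave 3 to 10 in lc, 0 to 2 in fas, 0 to 4 in lc/fas, 1 to 3 in RNAi-SlCLV3 and 1 to 5 in HC2. Apart from the blocks below, calls under the alternatives were not counted over all tested genes, here or for the line pairs. The cause of the changes in count was not tested.

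With the replicate number as a block the counts after 4dpi were 19 in lc, 8 in fas, 14 in lc/fas, 10 in RNAi-SlCLV3 and 16 in HC2. With a block within each genotype they were 20, 11, 16, 13 and 20. That fit called 21.4%, 11.8%, 10.3%, 7.29% and 17.7% of all tested genes in the same lines. The block by replicate number also gave 2 members for HC2 against fas at 4dpi (1.56% of all tested genes) and 4 for RNAi-SlCLV3 against lc/fas at 6dpi (2.92%). In these comparisons the numbers did not pair the samples by the criterion used. It moved no other count by over 1.5 times.

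For HC2 against fas the count was 0 at 4dpi with the mean filter. At 6dpi it was 0 with the pseudocount, the mean filter, no WT libraries or median-of-ratios scaling, and 0 without any 1 replicate. For RNAi-SlCLV3 against lc/fas at 4dpi there were 3 with the pseudocount, 1 with the mean filter, 11 with only these groups and 3 to 5 without 1 replicate. At 6dpi there was 1 with only these groups and 1 without the libraries under 10 M reads. In the step the count was 0 with the pseudocount, the mean filter, only these groups, no WT libraries or median-of-ratios scaling, and 0 without any 1 replicate. Read counts in early libraries limit the low members, of which 47 had a median under 10 reads in early WT.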
